A study of Mus musculus with 6 samples.

Results

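The genes described here encode the 6 KMT2 and SET1 enzymes that methylate histone H3 at lysine 4 (Kmt2a, Kmt2b, Kmt2c, Kmt2d, Setd1a and Setd1b) and 4 proteins that join only some of their complexes (Men1, Psip1, Cxxc1 and Wdr82). They were taken by symbol from a table of 17025 genes, and all 10 were found. The study sequenced RNA of epidermal progenitor cells that were sorted for integrin α6 from newborn mice at postnatal day 0. The 3 control-labelled libraries came from animals with K14Cre and 1 floxed copy of Ash2l (K14Cre,Ash2lF/+). The 3 cKO-labelled libraries came from animals with K14Cre and both copies floxed (K14Cre,Ash2lF/F). Both groups thus carry the Cre transgene, whose keratin 14 promoter is active in basal keratinocytes, and both carry at least 1 floxed allele, so no library is from a wild-type animal. The labels do not say whether animals were pooled or whether libraries of a group came from separate animals, and the p-values therefore describe spread among libraries, which may be technical.

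Methylation of histone H3 at lysine 4 marks promoters and enhancers that are in use or ready for use. Each KMT2 or SET1 enzyme has a catalytic SET domain and works on a shared core of WDR5, RBBP5, ASH2L and DPY30. The enzymes form 3 branches: KMT2A and KMT2B, which bind the scaffold protein menin and through it the chromatin reader PSIP1 (LEDGF); KMT2C and KMT2D, which act mainly at enhancers; and SETD1A and SETD1B, which bind CXXC1 and WDR82 and carry out most trimethylation at active promoters. KMT2A, KMT2B and CXXC1 each hold a CXXC zinc finger that binds unmethylated CpG. In the epidermis, trithorax-type and Polycomb complexes act on the same lineage genes from opposite sides.

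The total of the targeted gene was higher in the cKO-labelled libraries, so the groups are called by their labels throughout, and every direction below rests on labels that this total does not bear out. Ash2l was at 12.4, 18.1 and 15.9 FPKM in the control-labelled libraries 1, 2 and 3 and at 30.9, 29.5 and 22.9 FPKM in the cKO-labelled libraries 1, 2 and 3. The value covers the whole gene model, the labels do not say which part is floxed, and loss of that part alone may not show in it. FPKM is a fragment number scaled to the length of the gene and the size of the library. The libraries held 31578875 to 36027550 fragments. The library labelled cKO 3 stood apart from the other cKO-labelled libraries: its chi-square per gene was 286 and 280 against them, while they differed from each other by 15.4. The library labelled control 1 stood apart to a lesser degree, at 150 and 155 against the other control-labelled libraries, which differed from each other by 56.6. Spinous keratinocyte markers (7 of 7 found, Krt1 and Krt10 among them) summed to 4590 to 6440 FPKM in the control-labelled libraries and to 34600 to 68000 FPKM in the cKO-labelled ones. Melanocyte markers (10 of 10 found) summed to 3000 to 3430 and 182 to 403 FPKM, Schwann cell markers (7 of 7) to 121 to 151 and 71.4 to 94.8 FPKM, fibroblast markers (8 of 8) to 135 to 393 and 207 to 500 FPKM, and basal keratinocyte markers (9 of 9) to 5040 to 8740 and 8090 to 10500 FPKM. Most basal markers did not follow that sum: 6 of 9 differences were below 0 (median -0.36), Itgb1 and Itgb4 were called lower and Krt15 higher (limma adjusted p = 0.0201, 0.0438 and 0.00215). Itga6, the integrin used in the sort, was at a mean of 104 and 42.1 FPKM (limma adjusted p = 0.0710). None of these markers was at 0 in all libraries. The immune markers Ptprc, Cd3e and Lyz2 were under 1 FPKM in every library. Each value is an average over the sorted cells, so fewer cells of a type and less RNA per cell cannot be told apart. The part of this shift in cell markers in the differences below was not tested.

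The promoters of 3 KMT2 genes are shown so that a gene called between the groups can be set beside its relatives. Kmt2a was called lower in the cKO-labelled libraries, and Kmt2c and Kmt2d were not. The sequences are the 250 bases before the gene start in RefSeq on GRCm38.p6, which is not the build of the expression table, and run 5′ to 3′ on the strand of the gene. Capitals mark CpG, the dinucleotide that CXXC zinc fingers bind when unmethylated. The windows are chr9:44881290-44881539 on the minus strand for Kmt2a, chr5:25498784-25499033 on the minus strand for Kmt2c and chr15:98871206-98871455 on the minus strand for Kmt2d.
Kmt2a: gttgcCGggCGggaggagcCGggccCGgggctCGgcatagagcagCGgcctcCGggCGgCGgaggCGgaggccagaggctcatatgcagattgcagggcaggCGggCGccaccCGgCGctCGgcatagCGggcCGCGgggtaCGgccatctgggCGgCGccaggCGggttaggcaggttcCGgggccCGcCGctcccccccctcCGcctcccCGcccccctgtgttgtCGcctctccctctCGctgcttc
Kmt2c: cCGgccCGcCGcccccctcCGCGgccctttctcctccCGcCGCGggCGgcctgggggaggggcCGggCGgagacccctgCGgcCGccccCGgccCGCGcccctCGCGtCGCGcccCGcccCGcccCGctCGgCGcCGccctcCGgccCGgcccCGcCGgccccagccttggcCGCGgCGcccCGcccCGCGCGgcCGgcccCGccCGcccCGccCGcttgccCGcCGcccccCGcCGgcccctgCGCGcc
Kmt2d: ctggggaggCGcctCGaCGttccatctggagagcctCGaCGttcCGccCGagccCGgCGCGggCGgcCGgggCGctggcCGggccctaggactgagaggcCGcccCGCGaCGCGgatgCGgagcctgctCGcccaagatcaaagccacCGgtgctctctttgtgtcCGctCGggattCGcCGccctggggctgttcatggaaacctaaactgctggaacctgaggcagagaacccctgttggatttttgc

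All 3 windows are rich in CpG. Kmt2a holds 29, more than 93.2% of the 32851 promoter windows in the table, Kmt2c holds 48 (more than 99.8%) and Kmt2d holds 26 (more than 90.4%), against a median of 6. Windows were read for 6 of the 10 genes, and none for Kmt2b, Setd1b, Cxxc1 and Psip1. Entries of the 10 genes on 1 chromosome were left out, while the 32851 windows kept that chromosome. Setd1a holds 25, Wdr82 holds 24 and Men1 holds 8 (first of its listed starts). The GC box GGGCGG, read on both strands and itself containing a CpG, occurs 4 times in Kmt2a, 12 times in Kmt2c, 4 times in Kmt2d, 3 times in Wdr82, 1 time in Men1 and 0 times in Setd1a. At least 1 copy is present in 32.7% of all windows. The ETS-type motif CCGGAAG, read on both strands, occurs in none of the 6 windows and in 6.9% of all windows. The CpG number of Kmt2a lies between those of Kmt2c and Kmt2d, and its GC box number equals that of Kmt2d. Kmt2a is the only called gene with a window here, as none was read for Cxxc1 and Psip1. A link between these numbers and the calls was not tested.

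**Figure D1:**
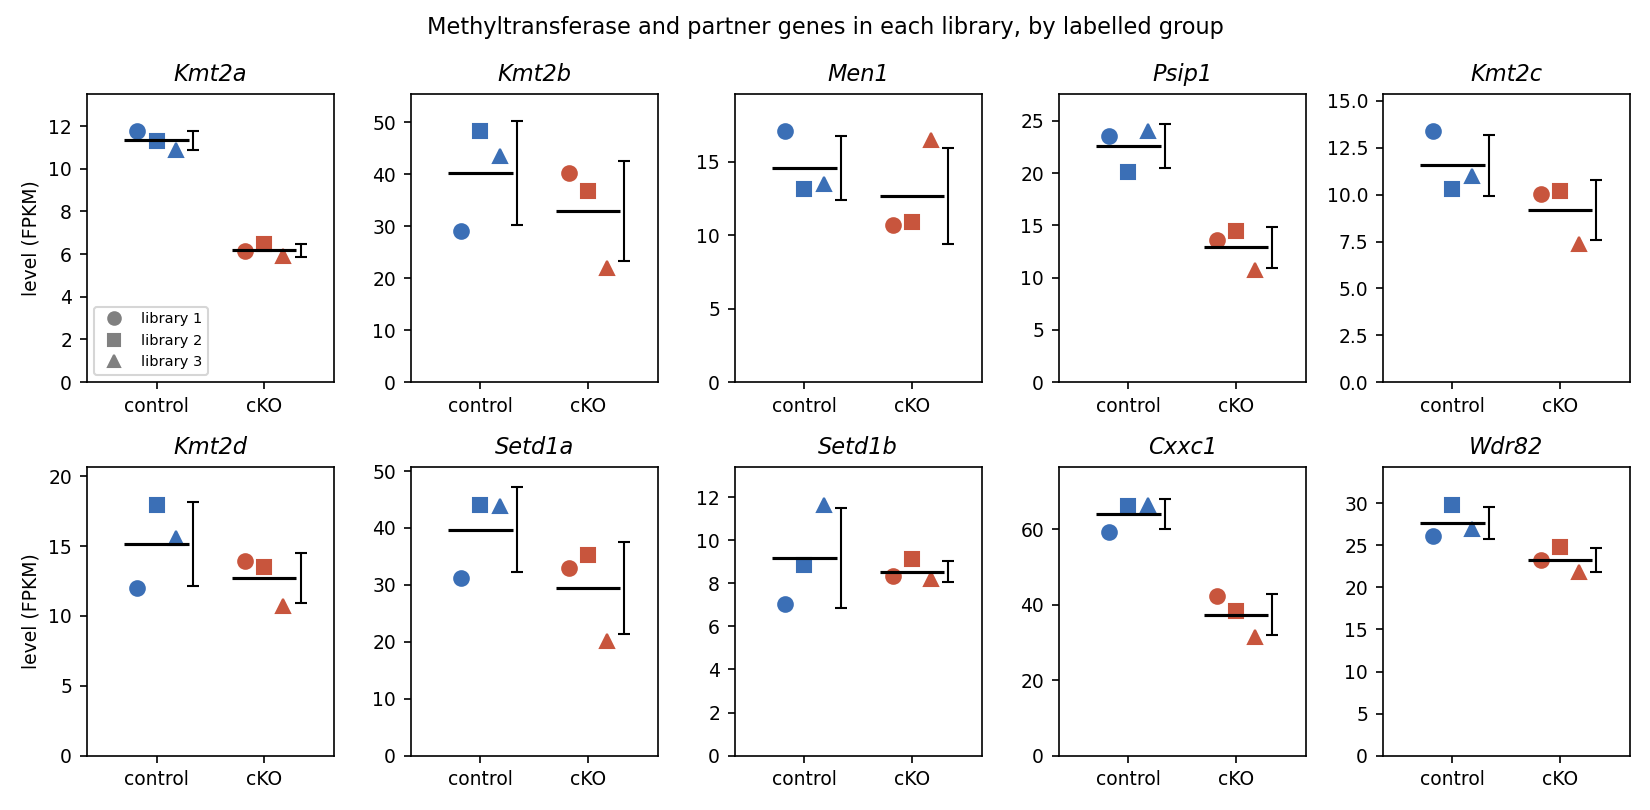
Level of each gene in FPKM (vertical axes, from 0) in the 3 control-labelled libraries (blue) and the 3 cKO-labelled ones (red); symbols give the library number, horizontal lines the mean and bars the SD. The groups of Kmt2a, Psip1 and Cxxc1 lie far apart, those of Kmt2c and Wdr82 lie close without touching, and the other 5 overlap.

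All 10 genes were expressed in every library, between 5.90 and 66.6 FPKM. FPKM is scaled to gene length, but not to GC content (42.5 to 59.1% among the 10 genes). Exon bases shared with other genes (52.3% in Setd1a) are not accounted for either. The order between genes below is therefore approximate. Averaged over the 6 libraries, Cxxc1 was highest at 50.7 FPKM, followed by Kmt2b (36.6), Setd1a (34.6), Wdr82 (25.4), Psip1 (17.7), Kmt2d (13.9), Men1 (13.6), Kmt2c (10.4), Setd1b (8.86) and Kmt2a (8.75 FPKM). Every pair of neighbours in this order had overlapping ranges over the libraries. Within a library, Cxxc1 stood above Kmt2b, Wdr82 above Psip1 and Men1 above Kmt2c in 6 of 6 libraries, while Kmt2b stood above Setd1a, Kmt2d above Men1, Kmt2c above Setd1b and Setd1b above Kmt2a in only 4 of 6. Cxxc1 lay at the 89.8th percentile of the 11603 genes tested and Kmt2a at the 43.4th. Within each pair of related enzymes, 1 was the more abundant: Kmt2b over Kmt2a and Setd1a over Setd1b in 6 of 6 libraries. These values rest on 1094 to 13853 fragments per gene and library, for which counting alone gives an error of 3.02 to 0.85%. The spread between libraries of a group was larger, from 3.78% of the mean (Kmt2a, control) to 29.2% (Kmt2b, cKO).

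In the KMT2A and KMT2B branch, the enzyme Kmt2a and the chromatin reader Psip1 fell in the cKO-labelled libraries, and Kmt2b and Men1 did not pass the test. Kmt2a, which maintains Hox gene expression, was at 11.8, 11.3 and 10.9 FPKM in the control-labelled libraries 1, 2 and 3 and at 6.13, 6.49 and 5.90 FPKM in the cKO-labelled libraries 1, 2 and 3. The 3 libraries of each group lay close together and the groups were far apart: the means were 11.3 ± 0.43 and 6.17 ± 0.30 FPKM (SD, n = 3 each), the latter 54.5% of the former. On the log2(FPKM + 1) scale, which slightly understates the change of genes at this level, Kmt2a differed by -0.78 (SE 0.16; limma adjusted p = 0.0135). Its exact two-sided permutation test gave p = 0.1, the smallest that 3 libraries against 3 allow.

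Psip1 tethers the menin and KMT2A complex to chromatin through its longer isoform. It was at 23.5, 20.1 and 24.0 FPKM in the control-labelled libraries and at 13.6, 14.4 and 10.7 FPKM in the cKO-labelled ones. Every library labelled cKO was below every library labelled control, and the fall was -0.77 on the log2 scale (SE 0.17; limma adjusted p = 0.0187). A gene total cannot tell the longer isoform from the shorter one, which does not bind menin. In the GENCODE annotation 9.5% of its exon bases are shared with Snapc3 on the opposite strand, and whether the counting used strand is not given in the sources used here.

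Kmt2b, the closest relative of Kmt2a, varied more within the groups than between them. It was at 29.1, 48.3 and 43.5 FPKM in the control-labelled libraries and at 40.2, 36.7 and 22.05 FPKM in the cKO-labelled ones, so that the libraries labelled control 1 and cKO 3 were the low ones. The difference was -0.29 (SE 0.27, 95% interval -0.92 to 0.33; limma adjusted p = 0.475). Men1 encodes menin, a tumour suppressor and the bridge between KMT2A and PSIP1. It was at 17.1, 13.2 and 13.5 FPKM and at 10.7, 10.9 and 16.5 FPKM, and here control 1 and cKO 3 were the high libraries. Its difference was -0.20 (SE 0.21, 95% interval -0.69 to 0.28; limma adjusted p = 0.528).

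In the enhancer branch neither enzyme passed the test. Kmt2c was at 13.4, 10.3 and 10.99 FPKM in the control-labelled libraries and at 10.03, 10.2 and 7.36 FPKM in the cKO-labelled ones. The groups did not overlap, but the gap between 10.3 and 10.2 FPKM was small, and the difference was -0.31 (SE 0.19, 95% interval -0.75 to 0.14; limma adjusted p = 0.291). Kmt2d, the more abundant enzyme of the pair in 5 of 6 libraries, was at 12.0, 17.96 and 15.5 FPKM and at 13.96, 13.5 and 10.7 FPKM. Its lowest control library lay below 2 of the cKO-labelled libraries, and the difference was -0.23 (SE 0.20, 95% interval -0.68 to 0.23; limma adjusted p = 0.444). The lower ends of both intervals lie above the estimate for Kmt2a, but they leave room for smaller falls, so the data do not show that Kmt2c and Kmt2d were alike in both groups.

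In the SET1 branch the CpG-binding subunit Cxxc1 fell, and both enzymes and Wdr82 did not pass the test. Cxxc1, also called CFP1, brings SETD1A and SETD1B to CpG islands. It was at 59.4, 66.2 and 66.6 FPKM in the control-labelled libraries and at 42.4, 38.4 and 31.5 FPKM in the cKO-labelled ones. The groups were well separated, with means of 64.0 ± 4.05 and 37.4 ± 5.53 FPKM (SD, n = 3 each). The fall was -0.77 on the log2 scale (SE 0.15; limma adjusted p = 0.0118; exact permutation p = 0.1). Wdr82, which ties the complex to RNA polymerase II, was at 26.2, 29.8 and 27.0 FPKM and at 23.2, 24.7 and 21.8 FPKM. Its groups did not overlap either, yet the difference of -0.24 (SE 0.13, 95% interval -0.55 to 0.07) had an adjusted p of 0.243 in limma. The exact permutation p was also 0.1 for Wdr82, Kmt2c and Psip1, so that test does not set the called genes apart.

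Setd1a, the more abundant enzyme of the branch, was at 31.2, 44.1 and 43.9 FPKM in the control-labelled libraries and at 32.9, 35.2 and 20.2 FPKM in the cKO-labelled ones. The library labelled control 1 was below 2 of the cKO-labelled ones, and cKO 3 was lowest. The difference was -0.44 (SE 0.24, 95% interval -0.995 to 0.12; limma adjusted p = 0.232). When only the closest pair of each group was kept (control 2 and 3, cKO 1 and 2), Setd1a was called at -0.36 (limma adjusted p = 0.0321), in a fit that called 20.7% of all genes lower. Of its exon bases 52.3% are shared in the GENCODE annotation with Gm49388 on the same strand or 9430064I24Rik on the opposite strand, so its level is uncertain. Setd1b was at 7.02, 8.85 and 11.6 FPKM and at 8.32, 9.11 and 8.19 FPKM. All 3 cKO-labelled libraries lay within the range of the control-labelled ones, and the difference was -0.07 (SE 0.21, 95% interval -0.55 to 0.41; limma adjusted p = 0.845).

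**Figure D2:**
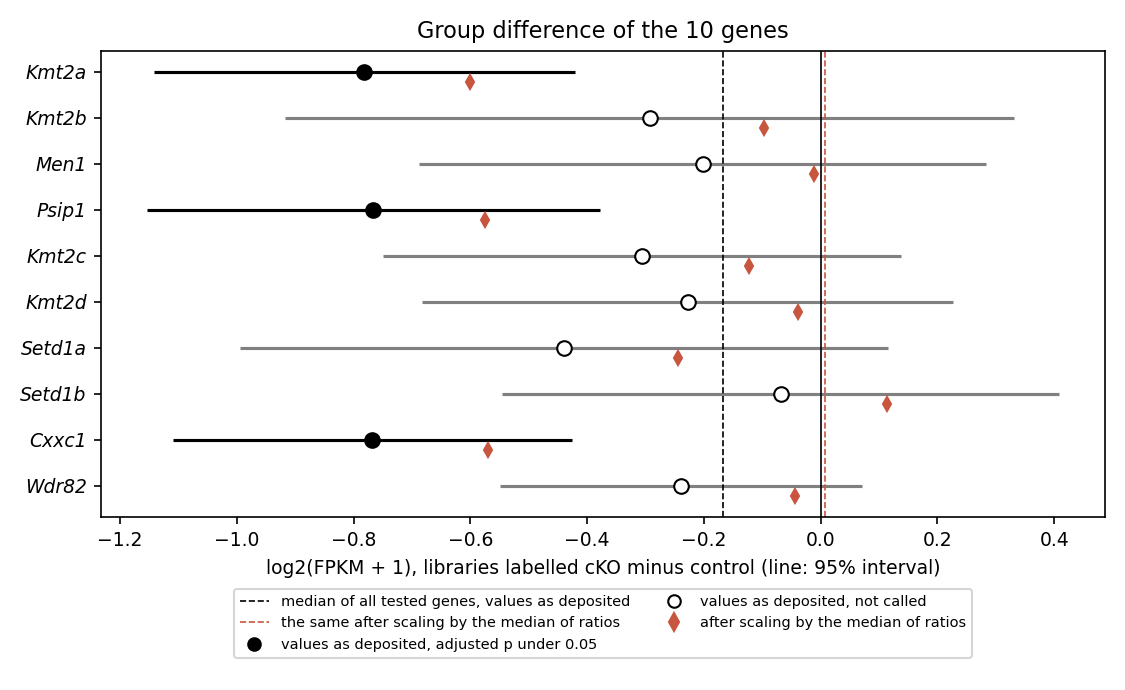
Difference between the groups on the log2(FPKM + 1) scale (horizontal axis, cKO-labelled libraries minus control) for each gene: circles, values as deposited, filled where the adjusted p was under 0.05, with 95% intervals; diamonds, after scaling by the median of ratios; dashed lines, the median of all tested genes under each scaling. Kmt2a, Psip1 and Cxxc1 stand near -0.77, Setd1b moves from -0.07 to 0.11 with the scaling, and the others lie between -0.44 and -0.20 as deposited.

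Of the 10 genes, 3 were called lower and 0 higher (limma; 3 and 0 also at an unadjusted p under the same threshold, which 24.6% of all genes passed lower and 10.1% higher; 3 and 0 by limma-voom on fragments recovered from the FPKM values, which called 8.91% of all genes lower and 8.01% higher). The shares of all genes tested were 13.6% called lower and 5.87% called higher. The groups did not overlap for 5 of the 10 genes, all of them lower in the cKO-labelled libraries; over all genes 30.9% did not overlap in that direction. All 10 differences were below 0, as were 63.9% of all genes, and their median was -0.30 against -0.17 for all genes. Part of that shift depends on the scaling. The 2 keratin genes Krt1 and Krt10 made up 0.885 to 1.28% of all FPKM in the control-labelled libraries and 7.97 to 16.2% in the cKO-labelled ones. Whether they have a part in the shift was not tested. Scaling by the median of ratios, which sets the typical gene equal between libraries, moved the median of all genes to 0.01 and the calls over all genes from 1576 lower and 681 higher to 1054 lower (9.08%) and 998 higher. Under it Kmt2a (-0.60), Cxxc1 (-0.57) and Psip1 (-0.58) were still called (limma adjusted p = 0.0328, 0.0190 and 0.0320), the median of the 10 genes became -0.11, and Setd1b turned to 0.11. The 3 calls lay close to the threshold when 1 library was left out. Kmt2a was not called without the library labelled control 2 or cKO 1 (limma adjusted p = 0.0578 and 0.0544), Cxxc1 without control 2 (0.0503), and Psip1 without control 1, control 3 or cKO 1 (0.0504, 0.0708 and 0.0505); so 1 of the 10 genes was called without control 2 and 1 without cKO 1.

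Ratios within a library do not depend on how libraries are scaled, but GC content and shared exon bases are not accounted for in them. They compare single genes and not whole branches. No test was made on them, and the share of all gene pairs whose ratios do not overlap is not given. Only the ratios of Kmt2a to Kmt2b, Kmt2c to Kmt2d and Setd1a to Setd1b were planned. The others were chosen after the calls were known. Where they set a called gene over one not called, a lower ratio largely restates the call. The ratio of Kmt2a to Kmt2b was 0.405, 0.234 and 0.251 in the control-labelled libraries and 0.153, 0.177 and 0.268 in the cKO-labelled ones. These overlap, because cKO 3 lay above 2 of the control-labelled libraries; a lower Kmt2a relative to Kmt2b was therefore not seen in every library. The ratio of Kmt2c to Kmt2d overlapped too, at 1.12, 0.574 and 0.707 against 0.719, 0.754 and 0.689, and so did that of Setd1a to Setd1b, at 4.44, 4.98 and 3.77 against 3.95, 3.87 and 2.47. Kmt2a was lower relative to Kmt2c in all cKO-labelled libraries, at 0.878, 1.10 and 0.992 against 0.611, 0.637 and 0.801. It was also lower without overlap relative to Kmt2d and Setd1b, whereas the ratios to Setd1a overlapped.

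Among the partners, the ratio of Cxxc1 to Wdr82 was 2.27, 2.22 and 2.47 in the control-labelled libraries and 1.83, 1.55 and 1.44 in the cKO-labelled ones, with no overlap. The ratio of Cxxc1 to Setd1a did overlap, at 1.91, 1.5 and 1.52 against 1.29, 1.09 and 1.56. There cKO 3 lay above control 2 and control 3. Cxxc1 to Setd1b was 8.46, 7.47 and 5.72 against 5.09, 4.22 and 3.84, with no overlap. Psip1 to Men1 was 1.38, 1.53 and 1.78 against 1.27, 1.32 and 0.649, also with no overlap but with cKO 3 far from the other 2. Ratios among the 3 called genes overlapped between the groups: Psip1 to Kmt2a was 2.00, 1.78 and 2.20 against 2.22, 2.22 and 1.81, and Cxxc1 to Kmt2a was 5.05, 5.85 and 6.10 against 6.91, 5.92 and 5.33. As these genes were all called lower, this overlap adds little to the calls. Ash2l, the core subunit, went the other way, and its ratio to Kmt2a was 1.06, 1.60 and 1.46 against 5.04, 4.54 and 3.89. Summed over the 6 enzymes, the level was 104 to 141 FPKM in the control-labelled libraries and 74.4 to 112 FPKM in the cKO-labelled ones. Kmt2b and Setd1a made up the largest shares of that sum, 27.8 to 36.0% and 27.2 to 32.2% over the 6 libraries, while Kmt2a made up 7.99 to 11.3% in the control-labelled libraries and 5.50 to 7.93% in the cKO-labelled ones.

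**Figure D3:**
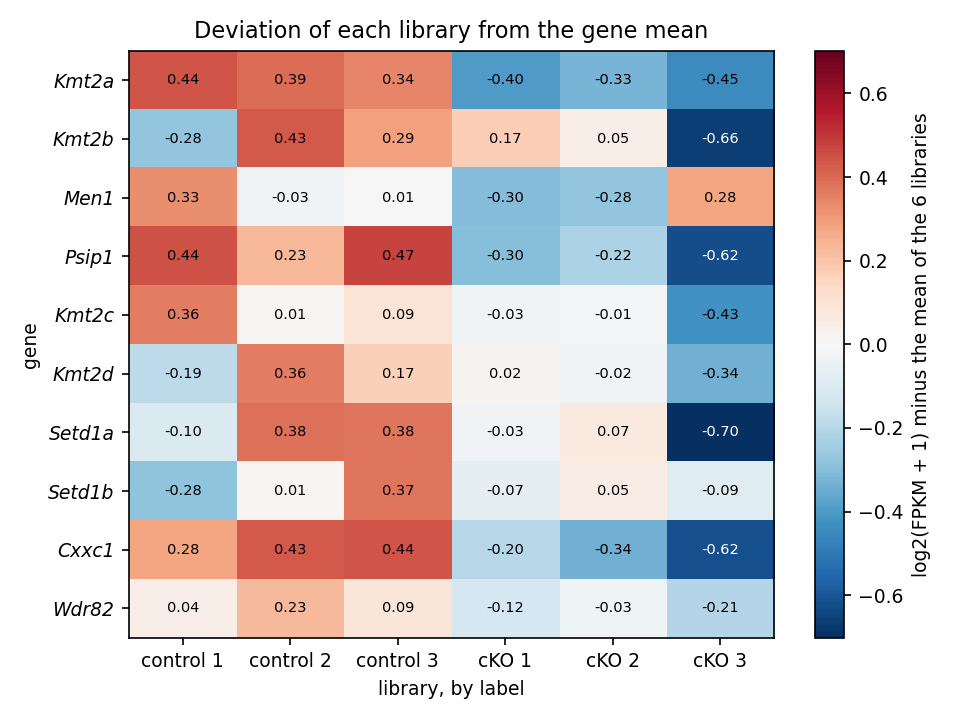
Deviation of each library (columns, by label) from the mean of the 6 libraries for each gene (rows), in log2(FPKM + 1); red is above and blue below the mean. Kmt2a, Psip1 and Cxxc1 change colour with the label. So do Kmt2c and Wdr82, though Kmt2c lies as close to the mean as 0.009 in control 2 and -0.007 in cKO 2. Kmt2b, Kmt2d, Setd1a and Setd1b are below the mean in control 1 as well, and 9 of the 10 genes, all but Men1, are lowest of their group in cKO 3.

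The genes differed in how they varied inside the groups. The library labelled cKO 3 was lowest of its group for 9 of the 10 genes, all but Men1; over all genes tested it was lowest for 60.1%. Its median deviation from the mean of the other cKO-labelled libraries was -0.34 for the 10 genes and -0.19 for all genes. The library labelled control 1 was lowest of its group for 6 of the 10 genes (41.3% of all genes) and highest for Kmt2a, Kmt2c and Men1 (37.3% of all genes). Of the 6 genes lowest there, Kmt2b, Kmt2d, Setd1a, Setd1b and Cxxc1 have a GC content of 57.0 to 59.1% and Wdr82 of 48.1%. Of the 3 highest there, Kmt2a and Kmt2c have 50.6 and 47.6% and Men1 57.0%. Over all genes, the deviation of control 1 was taken from the mean of all control-labelled libraries, itself included. Its median was -0.05 for the 25% richest in GC (above 54.7%) and -0.02 for the 25% poorest (below 45.1%). The part of GC content in these deviations was not tested. After each library was corrected for a smooth trend on GC content, Kmt2a, Cxxc1 and Psip1 were still the genes called lower, against 9.09% of all genes.

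Among 13 other subunits of the same complexes, the log2 difference was below 0 for 9. Of the 13 genes, 1 was called higher, Ash2l, and 0 lower in limma, against 5.87% and 13.6% of all genes. At an unadjusted limma p under the same threshold 2 were higher and 5 lower, against 10.1% and 24.6% of all genes. Limma-voom called 2 higher and 0 lower, against 8.01% and 8.91% of all genes. The median of the 13 genes was -0.38, and whether the 10 genes differ from them was not tested. The core subunits went in different directions: Wdr5 was at 30.8, 32.4 and 31.0 FPKM against 24.8, 24.6 and 17.9 FPKM (-0.48, SE 0.16; limma adjusted p = 0.0744), and Dpy30 at 21.0, 25.3 and 22.2 FPKM against 31.2, 32.1 and 31.0 FPKM (0.45, SE 0.13; limma adjusted p = 0.0516). The groups overlapped for neither gene, and neither passed the test. After scaling by the median of ratios Dpy30 was called at 0.65 (limma adjusted p = 0.0195), while Wdr5 was at -0.29 (0.183). Rbbp5, the remaining core subunit, was at -0.29 as deposited and at -0.09 after that scaling (limma adjusted p = 0.239 and 0.725). Ash2l lost its call when control 1, control 3, cKO 1 or cKO 2 was left out (limma adjusted p = 0.0560 to 0.0829), which left 0 of the 13 called higher in each case.

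Lysine methyltransferases outside the KMT2 and SET1 complexes went both ways. Of 26 genes 24 were tested, 2 were called lower and 2 higher, with a median of -0.10. Over all genes 13.6% were called lower and 5.87% higher. Smyd2, which methylates p53 as well as histones, fell from a mean of 67.8 to 30.4 FPKM (-1.16, SE 0.19; limma adjusted p = 0.00740), and Nsd3, a histone H3 lysine 36 methyltransferase, from 13.2 to 7.66 FPKM (-0.71, SE 0.20; limma adjusted p = 0.0401). Kmt5a, which places monomethylation on histone H4 at lysine 20, rose from 24.9 to 41.3 FPKM (0.71, SE 0.14; limma adjusted p = 0.0118), and Smyd5 from 8.29 to 15.2 FPKM (0.81, SE 0.17; limma adjusted p = 0.0167). Smyd2 was called under each of the 19 alternatives. Nsd3 was not called after scaling by the median of ratios (limma adjusted p = 0.0825) or without any 1 of the 6 libraries (0.0628 to 0.109), Smyd5 not without control 3, cKO 1 or cKO 2 (0.0611 to 0.0693), and Kmt5a not without cKO 2 (0.0519). Lower values were thus not shared by all methyltransferase genes, and whether the 10 genes differ from this list was not tested.

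**Figure D4:**
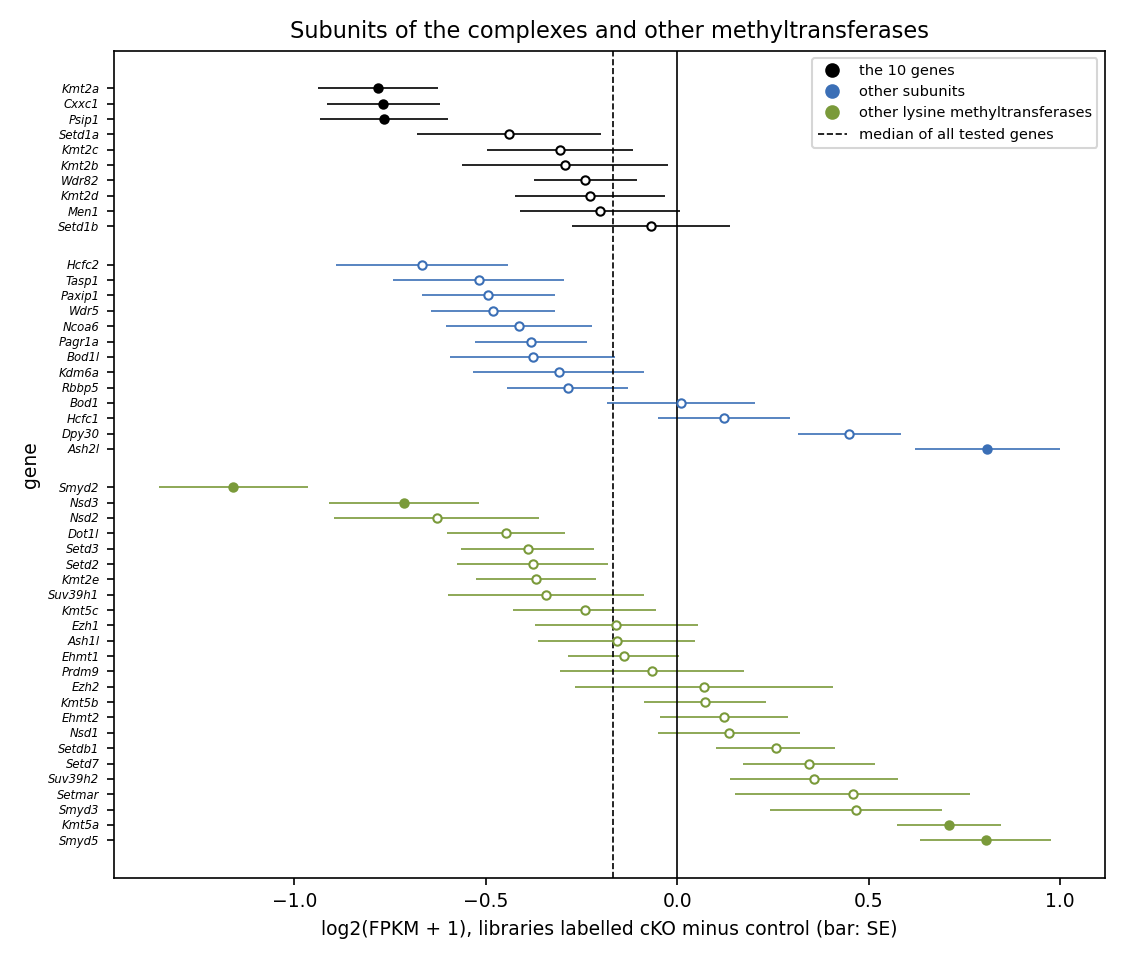
Difference between the groups (horizontal axis, log2(FPKM + 1), cKO-labelled libraries minus control; bars give the SE) for the 10 genes, 13 other subunits and 24 other lysine methyltransferase genes; filled symbols had an adjusted p under 0.05. The 3 calls among the 10 genes are negative, as are Smyd2 at -1.16 and Nsd3 at -0.71, whereas Ash2l, Kmt5a and Smyd5 lie at 0.71 to 0.81.

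Genes known as targets of menin and KMT2A were called in both directions. Of 11 such genes 9 were tested, 2 were called higher and 1 lower, with a median of -0.04. The shares over all genes were 5.87% higher and 13.6% lower. Hoxa7 was at 3.57, 4.99 and 5.22 FPKM in the control-labelled libraries and at 18.4, 19.9 and 16.1 FPKM in the cKO-labelled ones (1.78, SE 0.19; limma adjusted p = 0.00169). Hoxa5 was at 0.489, 2.88 and 4.29 FPKM against 12.7, 11.6 and 12.3 FPKM (2.08, SE 0.43; limma adjusted p = 0.0152). Both homeobox genes were thus higher where Kmt2a was lower. Cdkn2c, a cell cycle inhibitor gene, fell from 7.80 to 3.89 FPKM (-0.89, SE 0.26; limma adjusted p = 0.0474), and Cdkn1b, another one, was at 44.8 and 29.4 FPKM on average (-0.63, SE 0.21; limma adjusted p = 0.0711). The call of Cdkn2c was lost without any 1 of the 6 libraries (limma adjusted p = 0.0528 to 0.140) and after scaling by the median of ratios (0.0635), while those of Hoxa5 and Hoxa7 held under each of the 19 alternatives.

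The genes whose values over the 6 libraries were most like those of Kmt2a were Tnni2, Slc24a4 and Tmod1, by Pearson's coefficient of log2(FPKM + 1) (0.999, 0.999 and 0.998). Those most like Cxxc1 were Tnik, Spsb3 and Tspan4 (0.999, 0.998 and 0.998), and those most like Psip1 were Kitl, Phc3 and Cdk5rap2 (0.999, 0.997 and 0.997). All 9 were higher on average in the control-labelled libraries, which follows from how they were picked, as Kmt2a, Cxxc1 and Psip1 were higher there. The closest gene to Kmt2b was Tmem183a, to Kmt2d Rnf146, to Setd1a Xpo6, to Setd1b Klhl11, to Men1 Hyou1 and to Wdr82 Il1rap. These coefficients are descriptions of 6 libraries in 2 groups, picked as the highest among the 11603 genes tested, less predicted, pseudogene and mitochondrial ones, and the genes share the scaling of each library.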

How the data were processed

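RNA-seq values of 6 libraries, 3 labelled control and 3 labelled cKO, were used; groups and replicate numbers come from the titles in the labels. The authors deposited 1 table of FPKM values for 17025 genes (unit per the file headers). Tools named in the submitters' processing notes are fastp, HISAT2, HTSeq, with the build GRCm39 and no versions; annotation release, gene filter and strand setting were not given in the sources used here. Low FPKM values are whole multiples of the worth of 1 fragment, and gene lengths and library totals that give whole fragments (tolerance 1e-09) were found for 17025 genes; these served for depth and for limma-voom. Genes averaging 1 FPKM or more across the 6 libraries (11603) entered a limma fit (3.58.1, R 4.3.3) of log2(FPKM + 1) on group alone, with a mean-variance trend. P-values were adjusted by Benjamini-Hochberg over all of these genes and called under 0.05. The fit was tested on simulated data. Permutation tests used scipy 1.17.1 and figures matplotlib 3.10.9.

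The members, gene lists and tests were chosen with earlier results of these data known. Genes named are the 10 members, Ash2l, the called genes of each list (or the 3 with the smallest adjusted p where fewer were called; not all are printed), and the 3 genes most like a member. The GC correction (lowess, span 0.3, on the GC content of the longest GENCODE transcript, known for 98.3% of genes tested) and the ratios beyond those of paralogues were chosen after seeing the data. The other alternatives were pseudocounts, filters, scalings, variance settings, a replicate block, libraries left out and other thresholds. Same-numbered libraries did not deviate together, so replicate numbers were not treated as pairs. The gene most like Kmt2c is not reported here.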

Additional observations from a re-analysis of the deposited data

How the results depend on the processing

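Kmt2a was called lower in 15, Cxxc1 in 17 and Psip1 in 14 of 19 alternatives, with log2 differences of -0.87 to -0.59, -0.86 to -0.57 and -0.85 to -0.57 and adjusted p of 0.00177 to 0.111, 0.000948 to 0.0645 and 0.00345 to 0.0962 (limma). No member was called higher in any of them. Setd1b was above 0 after scaling by the median of ratios (0.11), quantile normalization (0.12), limma-voom (0.13), the GC correction (0.11), the replicate block with the GC correction (0.11) and without control 3 (0.10), and was called in none. Leaving out 1 library moved Setd1b from -0.23 to 0.10. Setd1a was called only on the 4 libraries of the closest pairs (control 2 and 3, cKO 1 and 2). With 1 library left out, 1 to 3 members were lower, 712 to 1448 of all genes lower and 390 to 715 higher, 0 to 1 other subunits lower and 0 to 1 higher, and 1 other methyltransferase lower in each case and 0 to 2 higher.

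Counts that moved by over 1.5 times are given next; the cause was not tested. With array weights 2831 of all genes were lower and 1423 higher, and 5 other subunits lower and 2 higher. On the 4 libraries these were 2402, 1174, 2 and 2, with 4 other methyltransferases higher. Limma-voom gave 1034 of all genes lower and quantile normalization 1028 higher. Other subunits had 2 higher with no filter, with the filter at 5 FPKM, with the median of ratios, quantiles, limma-voom and the GC correction. Other methyltransferases had 1 lower with no filter, the median of ratios, quantiles, limma-voom and the GC correction. At an adjusted p under 0.01, 0 members were lower, 506 of all genes lower and 265 higher, 0 other subunits higher, and 1 other methyltransferase lower and 0 higher. At an adjusted p under 0.1, 2407 of all genes were lower, and 3 other subunits lower and 2 higher.

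Same-numbered libraries had correlations of their deviations of -0.31, 0.08 and -0.26, so the numbers did not pair them. With the replicate block 1 member (Cxxc1) was lower, 893 of all genes lower and 432 higher, 0 other subunits higher and 1 other methyltransferase lower. With the replicate block and the GC correction together 0 members were lower, 689 of all genes and 1 other methyltransferase. The counting error of the members was at most 3.02%.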
